A study of Homo sapiens with 18 samples.

Results

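The difference between the poly(I:C) response of ELMO1-silenced cells and that of control cells was examined gene by gene, as the log2 change from 0 h to 24 h in siELMO1 minus the same change in siNT. The comparison used 12 of the 18 RNA sequencing libraries, 3 each of siNT and siELMO1 at 0 h and at 24 h. The other 6 libraries, Mock at 0 h and 24 h, entered the same fit and are given beside the results. EA.hy926 is a human endothelial line made by fusing umbilical vein endothelial cells with A549 lung carcinoma cells. Poly(I:C), an artificial RNA duplex, stands in for viral RNA. The siNT cells received 10 nM of a non-targeting siRNA, the siELMO1 cells 10 nM of a pool of 3 siRNAs against ELMO1, and the Mock cells the lipid reagent without siRNA. All groups shared the transfection reagent and low serum, and poly(I:C) at 1 μg/ml was added 48 h after transfection for 24 h, so every library at 24 h is also 24 h later after transfection. Cells without poly(I:C) at that later time are not part of the comparison, and time in culture and poly(I:C) cannot be told apart. The siRNA acted transiently in a single line, so the groups are models of a knockdown and not of a cell without the gene. The paper reports widespread cell death in the siNT cultures after poly(I:C), and less of it in the other groups. It gives this death as the likely reason for lower inflammatory transcripts in siNT. Each library holds RNA of a whole culture, in which a change in the cells present and a change per cell cannot be told apart. The part of cell death in the differences was not tested.

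Double-stranded RNA is sensed in endosomes by TLR3 and in the cytosol by RIG-I and MDA5, which activate NF-κB and the interferon regulatory factors. NF-κB drives chemokines, cytokines and its own inhibitors, whereas secreted interferon acts through STAT proteins to raise antiviral effector genes. ELMO1 is a scaffold that works with DOCK proteins to activate the small GTPase RAC1.

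The difference between the responses is identical to the siELMO1 minus siNT difference at 24 h less the same difference at 0 h. A gene can therefore enter it through a gap between the groups that was present after poly(I:C), through a gap that was present before it, or through both. A positive value is called a higher response and a negative value a lower response, and values are given as log2 differences ± SE. A gene was assigned to the 24 h level if over 0.667 of the value came from the 24 h gap, to the 0 h level if under 0.333 did, and to both levels otherwise. Levels are estimated CPM (counts scaled to library size with TMM factors), in the order of replicates 1, 2 and 3.

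ELMO1 itself was low in siELMO1 at both times. Its level was 2.85, 2.66 and 3.32 CPM in siNT and 0.299, 0.301 and 0.419 CPM in siELMO1 at 0 h, and 3.38, 2.98 and 3.59 CPM and 0.288, 0.155 and 0.360 CPM at 24 h. The groups did not overlap at either time, and the gene's own response did not differ detectably between them (-0.53 ± 0.39, edgeR adjusted p = 0.33). The 12 libraries held 40.4 to 71.1 M estimated counts. Of 15 endothelial markers 13 were tested, among them CDH5, which encodes VE-cadherin, and PECAM1, whereas 1 of 12 leukocyte markers (LYZ) passed the filter. The keratin genes KRT7, KRT8 and KRT18 also passed it. In siELMO1 at 0 h, replicates 2 and 3 had 4.03% and 3.95% of counts from mitochondrial genes, against 1.86% in replicate 1. All other libraries held 1.31% to 2.42%, so replicate 1 was within their range and replicates 2 and 3 above it.

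Over all 15167 genes tested, the response was higher in siELMO1 for 581 genes (3.83%) and lower for 360 (2.37%) at an edgeR adjusted p under 0.05 and a difference over 1 on the log2 scale. By adjusted p alone 2533 genes (16.7%) were higher and 2700 (17.8%) lower. The median difference over all genes was -0.02. The p-values measure only the spread between these replicate samples, which the labels do not tie to separate cultures. Without siELMO1 replicate 1 at 0 h, which differed from replicates 2 and 3 in the mitochondrial share, 686 genes were higher and 433 lower. Without replicate 2 of that group 541 were higher and 337 lower, and without replicate 3 568 and 321. Most of the differences were assigned to the 0 h level. Of the 581 higher genes, 419 (72.1%) were assigned to the 0 h level, 91 (15.7%) to the 24 h level and 71 (12.2%) to both. Of the 360 lower genes, 246 (68.3%) were assigned to the 0 h level, 65 (18.1%) to the 24 h level and 49 (13.6%) to both. In the 0 h class of higher genes the median gap was -1.66 at 0 h and -0.01 at 24 h, so at the median siELMO1 lay below siNT before poly(I:C) and level with it afterwards. In the 24 h class of higher genes the medians were -0.08 and 1.52, so at the median the groups started close and separated. The rule that assigns the classes favours such medians, so they describe the classes and are not a separate result.

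**Figure D1:**
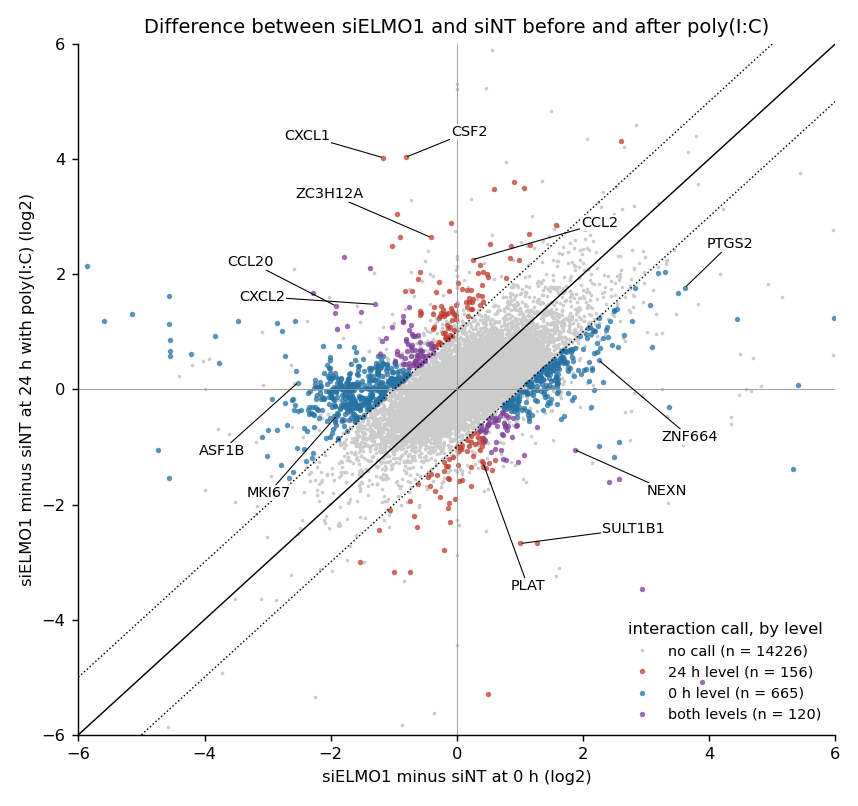
Each point is 1 of the 15167 genes, with the siELMO1 minus siNT difference at 0 h on the x axis and at 24 h on the y axis (both log2), and colours give the level of the genes past both thresholds. Genes on the solid diagonal responded alike, the dotted lines mark a difference of 1, and 42 genes lie outside the axes. Blue points (0 h level, 665 genes) spread along the horizontal axis and red points (24 h level, 156 genes) along the vertical axis.

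The transcript with the most counts was compared for the 116 genes with a call that were chosen for description by rule. It kept the call in 52, had the same direction without a call in 59 and the opposite direction in 5. Among the 59 were CXCL8 (1.17, adjusted p = 0.12), CCL20 (4.04, 0.298), CSF3 (3.27, 0.5), OASL (2.51, 0.128), IL6 (0.19, 0.968), NFKBIZ (1.44, 0.806), SOCS1 (1.56, 0.852), PLAT (-4.32, 0.254), NEXN (-3.81, 0.518), EGR1 (-1.16, 0.0693) and ZNF664 (-1.33, 0.449), whose calls rest on the counts of the gene. The same holds for TEX14 (2.28, edgeR adjusted p = 0.466), AKR1C1 (-0.82, 0.89) and C19orf33 (-1.205, 0.0677).

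A higher response had different forms. Over all genes, 28.6% rose and 25.2% fell in siNT, and 28.0% rose and 26.9% fell in siELMO1 (edgeR, adjusted p under 0.05). In 261 of the 581 higher genes the transcript fell in siNT and rose in siELMO1, in 137 it rose in siELMO1 with no call in siNT, in 116 it rose in both, and in 52 it fell in siNT with no call in siELMO1. Among the 360 lower genes, 105 fell in siELMO1 with no call in siNT, 104 rose in siNT and fell in siELMO1, and 98 rose in siNT with no call in siELMO1. A log2 difference compares ratios, and 9 of these 941 genes had the opposite sign when the differences were taken in CPM. For 28 genes at least 1 of the 4 groups held 3 counts or fewer in every library, and 564 higher and 349 lower genes remained without them.

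The Mock libraries were set beside both groups. In the 0 h class of higher genes, siELMO1 stood at a median of -1.68 against Mock at 0 h and siNT at 0.00. In the 24 h class of higher genes it was siNT that stood farther from Mock, at -1.10 after poly(I:C) against 0.55 in siELMO1. In the 0 h class of lower genes siNT stood at -0.99 against Mock at 0 h while siELMO1 stood at 0.52, and siNT was the group farther from Mock in 168 of these 246 genes. The 24 h class of lower genes had siNT at 0.89 and siELMO1 at -0.47 against Mock at 24 h. These medians describe the classes and were not tested.

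Of 14 listed chemokine genes, the CXC group with CX3CL1, 7 were tested, and 4 (57.1%) had a higher response in siELMO1, against 16.7% of all genes. The median difference of the 7 was 1.78 (1.60 without CXCL10 and CXCL11, which had no counts at 0 h). The median gap was -0.21 at 0 h and 1.48 at 24 h. CXCL1, a neutrophil attractant, held 0.658, 0.806 and 0.898 CPM in siNT and 0.572, 0 and 0.320 CPM in siELMO1 at 0 h. After poly(I:C) it reached 7.28, 6.84 and 8.00 CPM in siNT and 112, 103 and 146 CPM in siELMO1. Every siELMO1 library at 24 h was far above every siNT library, the low starting levels rest on few counts, and the response difference was 5.19 ± 0.48 (edgeR adjusted p = 1.8e-07). Mock reached a mean of 127 CPM, so siELMO1 was near Mock and siNT below both. These are levels of whole cultures, and the part of the cell death reported in siNT was not tested here or for the other chemokines and cytokines.

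CXCL8, which encodes interleukin-8, started at 20.9, 19.7 and 21.5 CPM in siNT and 19.4, 18.7 and 15.5 CPM in siELMO1, a gap that did not pass the test. At 24 h it held 260.1, 243 and 207 CPM in siNT and 615, 512 and 641 CPM in siELMO1, against a mean of 1152 CPM in Mock. The difference of responses was 1.53 ± 0.15 (edgeR adjusted p = 4.2e-07). CXCL2, a paralog of CXCL1 whose reads could be shared with it, differed at both times. It was lower in siELMO1 at 0 h (1.10, 0.678 and 0.999 CPM against 2.63, 2.40 and 2.07 CPM) and higher at 24 h (65.2, 58.9 and 79.3 CPM against 25.7, 21.7 and 25.6 CPM), and its difference was 2.78 ± 0.23. CXCL10 and CXCL11, attractants of T cells that interferon induces, were at 0 counts in all 6 starting libraries, so no difference of responses is given. At 24 h CXCL10 held 6.96, 6.76 and 9.09 CPM in siNT and 25.5, 23.6 and 40.9 CPM in siELMO1, and CXCL11 held 12.9, 10.8 and 20.6 CPM and 43.9, 41.9 and 67.3 CPM.

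Of 9 CC chemokine genes 5 were tested and 2 (40%) had a higher response, against 16.7% of all genes. CCL2, which attracts monocytes, started at 22.84, 24.96 and 22.5 CPM in siNT and 25.3, 30.6 and 28.0 CPM in siELMO1 and reached 86.4, 82.1 and 106 CPM and 402, 402 and 504 CPM. The siELMO1 rise was 15.6-fold and the siNT rise 3.90-fold, a difference of 2.00 ± 0.18 (edgeR adjusted p = 9.7e-08) that lay at 24 h. CCL20 had a larger difference (3.37 ± 0.38) that came from both times, with 19.4, 18.2 and 17.0 CPM in siNT and 43.9, 40.4 and 65.0 CPM in siELMO1 at 24 h and under 1 CPM in all 6 libraries at 0 h. CCL5 rose in both groups from starting levels of 0 to 0.314 CPM, too low to compare the responses (adjusted p = 0.49, edgeR), and its level at 24 h was 26.7, 27.4 and 46.2 CPM in siNT and 69.5, 70.2 and 109.9 CPM in siELMO1.

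Among 23 cytokine and growth factor genes tested, 12 (52.2%) had a higher response and 1 (4.35%) a lower one, against 16.7% and 17.8% of all genes. Of the 13 with a call 9 were assigned to the 24 h level. CSF2, the granulocyte-macrophage colony-stimulating factor, held 1.03, 1.71 and 1.27 CPM in siNT and 0.871, 0.703 and 0.679 CPM in siELMO1 at 0 h. At 24 h siNT held 1.85, 1.59 and 1.82 CPM and siELMO1 reached 28.8, 25.4 and 32.0 CPM. The siELMO1 rise was 37.7-fold, the siNT change did not pass the test (adjusted p = 0.24, edgeR), and the difference was 4.84 ± 0.40 (adjusted p = 4.8e-08). Mock reached 8.52 ± 3.60 CPM (SD, n = 3), between them. CSF3, which encodes the granulocyte colony-stimulating factor, reached 12.7, 14.7 and 16.0 CPM in siNT, 101, 91.0 and 129 CPM in siELMO1 and a mean of 154 CPM in Mock, with a difference of 2.97 ± 0.37.

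IL6 was less certain. It reached 44.3, 47.1 and 42.9 CPM in siNT and 130.2, 125 and 174 CPM in siELMO1, without overlap, but it already tended to be higher in siELMO1 at 0 h (2.20, 3.19 and 2.54 CPM against 1.84, 0.773 and 1.66 CPM). Its difference of responses was 0.83 ± 0.28 (edgeR adjusted p = 0.029), and the call was lost under limma-voom (adjusted p = 0.18) and without siNT replicate 1 (0.15) or 3 (0.1) at 0 h, without siELMO1 replicate 1 (0.081) or 3 (0.054) at 0 h, and with only the 12 libraries in the fit (0.055). IL1B, by contrast, was lower in siELMO1 at both times, and its responses did not differ detectably (0.23 ± 0.13, adjusted p = 0.2). TNF and IFNB1 had no more than 3 counts in every library at 0 h. At 24 h TNF held 0.210, 0 and 0.403 CPM in siNT and 5.99, 6.11 and 11.0 CPM in siELMO1, and IFNB1, the gene of interferon beta, held 1.70, 1.43 and 1.91 CPM and 5.81, 5.52 and 11.6 CPM. The single lower cytokine was IL11 (-0.99 ± 0.35, adjusted p = 0.036), and that call was lost without a low-count filter (edgeR adjusted p = 0.093) and without any of 8 of the 12 libraries in turn.

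**Figure D2:**
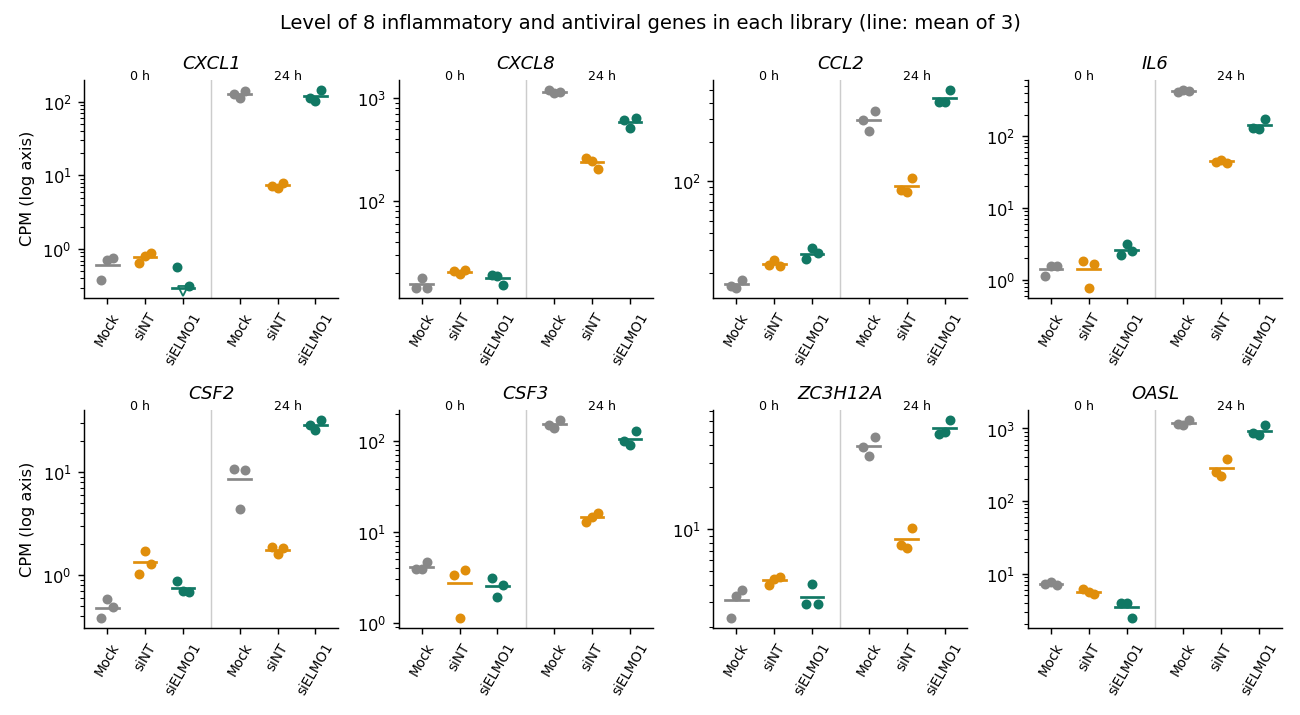
Points are the CPM of 1 library (log axis, different in each panel) for 8 genes, and lines are group means of 3. An open triangle at the foot of the CXCL1 panel marks a library at 0 CPM. At 0 h the groups lie near each other compared with 24 h, and at 24 h each siELMO1 library exceeds each siNT library in all 8 panels.

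In the list of NF-κB subunits and inhibitors 3 members with a call were of the 24 h level and 9 of the 0 h level, and in the list of AP-1, EGR and Krüppel-like factors 5 were of the 24 h level, 7 of the 0 h level and 1 of both. ZC3H12A, which is in none of the lists, encodes Regnase-1, an endoribonuclease that degrades cytokine transcripts, and it rose from 2.91, 4.04 and 2.90 CPM to 48.1, 49.7 and 60.9 CPM in siELMO1 but only from 3.99, 4.41 and 4.58 CPM to 7.78, 7.33 and 10.3 CPM in siNT (3.06 ± 0.25, edgeR adjusted p = 4e-08). NFKBIZ encodes IκBζ, a nuclear partner of NF-κB, and reached 35.65, 40 and 48.84 CPM in siNT and 174, 163 and 223 CPM in siELMO1 (1.80 ± 0.16). KLF4, a Krüppel-like factor, also differed at 24 h (1.70 ± 0.25), with 31.7, 30.1 and 49.1 CPM in siNT, 91.5, 88.2 and 124 CPM in siELMO1 and a mean of 155 CPM in Mock. EGR1, an early growth response factor, went the other way (-1.19 ± 0.24, adjusted p = 0.00078), reaching 7.17, 9.38 and 6.55 CPM in siNT and 2.81, 2.64 and 2.74 CPM in siELMO1. KLF2, a Krüppel-like factor of the same list, likewise had a lower response at the 24 h level (-0.757, edgeR adjusted p = 1.78e-05).

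Of 20 NF-κB subunits and inhibitors 11 (55%) had a higher response and 1 (5%) a lower one, against 16.7% and 17.8% of all genes. The median gap was -0.42 at 0 h and 0.23 at 24 h, so both levels contributed to the median. Of the 12 genes with a call 9 were assigned to the 0 h level and 3 to the 24 h level. BIRC3, a ubiquitin ligase of the TNF receptor complex, held 3.30, 4.69 and 3.32 CPM in siNT and 0.885, 0.603 and 0.839 CPM in siELMO1 at 0 h. At 24 h it held 90.6, 85.8 and 103 CPM and 91.6, 85.1 and 109 CPM, and the groups overlapped. Its difference of 2.27 ± 0.22 (edgeR adjusted p = 4.2e-07) came from 0 h. TNFAIP3, which encodes the deubiquitinase A20 (1.42 ± 0.11), and NFKBIA, which encodes IκBα (0.79 ± 0.10), were also lower in siELMO1 at 0 h, with smaller gaps in the other direction at 24 h. The TNFAIP3 transcript with the most counts, 41.6% of those of the gene, differed by 0.16 (adjusted p = 1), so this value depends on the transcript counted.

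Sequences of promoters are shown for genes of the NF-κB and chemokine groups that hold the letters GGGA, any base and TTTCC, a form of the NF-κB site, in the 250 bases before and 50 bases after the gene start (RefSeq, GRCh38.p14). The word is in capitals, each run is 5′ to 3′ on the strand of the gene, and position is the distance of its first base from the start.
CXCL1 (chr4:73869304-73869333, plus strand, position -79): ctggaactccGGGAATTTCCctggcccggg
CXCL2 (chr4:74099254-74099283, minus strand, position -78): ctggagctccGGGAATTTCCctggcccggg
IL6 (chr7:22727117-22727146, plus strand, position -73): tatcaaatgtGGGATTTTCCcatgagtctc
NFKBIZ (chr3:101827757-101827786, plus strand, position -223): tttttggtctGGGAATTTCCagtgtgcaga
NFKBIA (chr14:35404811-35404840, minus strand, position -81): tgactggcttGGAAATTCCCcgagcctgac
TNFAIP3 (chr6:137867182-137867211, plus strand, position -67): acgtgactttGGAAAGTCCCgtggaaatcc
The last pair hold the word on the other strand. On either strand it was found in 0.579% of the 27305 promoters in the table and in 0.589% of the 10689 promoters matched to genes tested. Among the genes with a higher response it was in 8.47% of 59 promoters of the 24 h class, 2.08% of 48 of the class of both levels and 0.654% of 306 of the 0 h class, and among genes with a lower response in none of the 162, 35 and 28 promoters of the classes of the 0 h level, the 24 h level and both. NFKBIA and TNFAIP3, which hold the word, were assigned to the 0 h level, and CXCL8, CCL20, CSF2 and ZC3H12A, in which it was not found, were higher at 24 h. A match of letters is a description and not a measured binding site.

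Antiviral genes differed by less, and at both times. Of 46 antiviral effectors tested 32 (69.6%) had a higher response in siELMO1 and 1 (2.17%) a lower one, against 16.7% and 17.8% of all genes. The median difference was 0.62, from a gap of -0.30 at 0 h and 0.36 at 24 h, so both levels contributed. The response itself was large in every group, at a median of 3.35 in siNT, 4.03 in siELMO1 and 4.13 in Mock. The mean log2(CPM + 0.5) of the list was 8.02, 7.95 and 8.33 in siNT and 8.52, 8.48 and 8.69 in siELMO1 at 24 h, without overlap. Of these 33 genes 10 were assigned to the 24 h level, 9 to the 0 h level and 14 to both. OASL, an oligoadenylate synthetase-like protein that augments RIG-I signalling, had the largest difference among the members with a call (2.42 ± 0.28, edgeR adjusted p = 2.4e-06). XAF1, an interferon-induced gene, had a larger value without a call (3.06 ± 1.37, adjusted p = 0.096), which was -4.19 without siNT replicate 1 at 0 h. OASL went from 6.07, 5.56 and 5.27 CPM to 251, 225 and 382 CPM in siNT and from 3.89, 3.97 and 2.44 CPM to 856, 818 and 1134 CPM in siELMO1. ISG15, a ubiquitin-like modifier, rose 33.4-fold in siNT and 71.7-fold in siELMO1 (1.10 ± 0.20). RSAD2, the gene of viperin, differed at 24 h (96.3, 90.3 and 143 CPM in siNT and 495, 458 and 587 CPM in siELMO1), but it was already higher in siELMO1 at 0 h (0.626, 0.603 and 0.300 CPM against 0.254, 0.132 and 0.120 CPM), and its responses did not differ detectably (0.62 ± 0.70, adjusted p = 0.53).

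Of 16 double-stranded RNA sensors and adaptors 4 (25%) had a higher response and 1 (6.25%) a lower one, against 16.7% and 17.8% of all genes. IFIH1, which encodes MDA5, reached 201, 183 and 251 CPM in siNT and 296, 276 and 332 CPM in siELMO1 and differed by 0.90 ± 0.16 (edgeR adjusted p = 0.00025), with parts from both times. TLR3 differed by 0.63 ± 0.16 (adjusted p = 0.0044), also from both times, and reached 115, 110.3 and 149 CPM in siNT and 152, 143 and 173 CPM in siELMO1. RIGI was higher in siELMO1 at 0 h and at 24 h, and its responses did not differ detectably (0.35 ± 0.16, adjusted p = 0.095), although a difference was called without siNT replicate 3 at 24 h (0.52, adjusted p = 0.0034) and with a replicate block (0.36, 0.042). TRAF3, an adaptor of interferon induction, had the lower response (-0.60 ± 0.09), which came from a higher level in siELMO1 at 0 h.

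Among 16 interferon regulatory factors, STATs and SOCS genes tested, 6 (37.5%) were higher and 3 (18.8%) lower, against 16.7% and 17.8% of all genes. The list median of 0.124 did not exceed the spread of its libraries (SD of the list mean, 0.152). SOCS1, an inhibitor of JAK kinases, had a difference of 2.18 ± 0.23 (edgeR adjusted p = 1.1e-06) that lay at 0 h. It held 9.01, 8.62 and 9.87 CPM in siNT and 2.12, 2.54 and 1.48 CPM in siELMO1 before poly(I:C) and 11.3, 11.8 and 13.2 CPM and 11.8, 11.0 and 13.7 CPM after it. IRF1 was also below siNT at the start (0.93 ± 0.15, 0 h level). IRF9, an interferon-activated transcription factor, had a lower response. It started at 13.4, 12.9 and 12.2 CPM in siNT and 10.4, 15.5 and 15.2 CPM in siELMO1 and reached 77.4, 101 and 116 CPM and 52.9, 48.9 and 48.2 CPM, a difference of -1.05 ± 0.23 (adjusted p = 0.0018). IRF9 overlaps other genes on both strands, the counting is not stated to use strand, and its transcript with the most counts had the opposite sign without a call, so this value is uncertain.

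Guanylate-binding proteins, interferon-induced GTPases, had a median gap of -0.781 at 0 h and 0.535 at 24 h, so both levels contributed to the median. The 3 members with a call were assigned to the 0 h level. Of 6 such genes tested 3 (50%) were higher, against 16.7% of all genes. Of the 3 higher genes 2 had 3 counts or fewer in every library of a group. The number of higher genes was 1 without siNT replicate 2 at 0 h. GBP1 was lower in siELMO1 at 0 h (4.12, 4.85 and 4.67 CPM against 8.58, 8.98 and 9.01 CPM) and overlapped with siNT at 24 h (285, 284 and 349 CPM against 248, 242 and 354 CPM), a difference of 1.09 ± 0.18 (edgeR adjusted p = 0.00017). Of 21 antigen presentation genes 8 (38.1%) were higher and 1 (4.76%) lower, against 16.7% and 17.8% of all genes. Of the 9 with a call 5 were at the 0 h level. The count of higher genes was 5 under limma-voom, without siELMO1 replicate 3 at 0 h and without siNT replicate 2 at 24 h. PSMB10, an immunoproteasome subunit, had the largest difference of these (0.98 ± 0.20, 0 h level). C3, the central complement component, and PLAAT4, an interferon- and retinoid-induced phospholipase, led the class of both levels together with CCL20 and CXCL2. C3 reached 32.0, 31.8 and 32.5 CPM in siNT and 81.1, 80.0 and 73.0 CPM in siELMO1 (2.13 ± 0.27), and PLAAT4 reached 9.69, 6.65 and 12.6 CPM and 20.1, 20.1 and 21.4 CPM (2.11 ± 0.38).

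Cell cycle genes differed at the 0 h level, to which 39 of 40 S phase and 52 of 54 G2/M genes with a call were assigned. By list mean, every siELMO1 library lay below every siNT library before poly(I:C) and near them after it. Of 43 S phase genes 40 (93%) had a higher response (edgeR, adjusted p under 0.05), against 16.7% of all genes. Of 54 G2/M genes 53 (98.1%) were higher and 1, CTCF, was lower. The median gap of the S phase genes was -1.30 at 0 h and -0.02 at 24 h, and that of the G2/M genes -1.69 and 0.02. The median responses were -0.45 and -0.82 in siNT, and in siELMO1 they were 0.82 and 0.80. At 0 h the mean log2(CPM + 0.5) of the G2/M genes was 6.82, 6.85 and 6.81 in Mock, 6.67, 6.67 and 6.67 in siNT and 5.14, 5.15 and 5.18 in siELMO1. At 24 h it was 6.38, 6.46 and 6.30 in Mock, 5.93, 5.90 and 5.99 in siNT and 6.04, 5.99 and 5.76 in siELMO1. The siELMO1 libraries stood alone at 0 h and overlapped with siNT at 24 h, both below Mock. The RNA comes from whole cultures, in which fewer cycling cells and less RNA of these genes per cell cannot be told apart.

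CDK1, the kinase of mitotic entry, held 141, 146 and 141 CPM in siNT and 24.4, 23.4 and 22.3 CPM in siELMO1 at 0 h and 65.9, 61.6 and 68.0 CPM and 63.3, 57.4 and 50.3 CPM at 24 h. It fell to 0.457 of its starting level in siNT and rose 2.44-fold in siELMO1, a difference of 2.42 ± 0.10 (edgeR adjusted p = 1.7e-11). TOP2A, the topoisomerase of mitotic chromosomes, differed by 2.21 ± 0.10, and MKI67, the proliferation marker Ki-67, by 1.44 ± 0.17. MKI67 held 359, 303 and 302 CPM in siNT and 65.9, 94.1 and 97.5 CPM in siELMO1 at 0 h, and remained lower in siELMO1 at 24 h (181, 188 and 156 CPM against 226, 244 and 255 CPM).

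Among S phase genes, RRM2, a subunit of ribonucleotide reductase, held 219, 211 and 215 CPM in siNT and 58.3, 50.8 and 57.4 CPM in siELMO1 at 0 h and 142, 148 and 158 CPM and 168, 157 and 134 CPM at 24 h (1.99 ± 0.11, edgeR adjusted p = 2.8e-10). RAD51AP1, a recombination factor, had the largest difference of the S phase list (2.41 ± 0.19), and MCM5, a subunit of the replicative helicase, differed by 1.11 ± 0.07. The histone chaperone gene ASF1B, among the largest of the 0 h class, held 50.4, 50.4 and 54.0 CPM in siNT and 10.1, 7.13 and 9.49 CPM in siELMO1 at 0 h and 29.7, 28.9 and 36.7 CPM and 38.3, 33.3 and 31.7 CPM at 24 h (2.64 ± 0.15). TEX14, a gene of intercellular bridges (2.87 ± 0.25), and ACBD7 (2.52 ± 0.22) were in the same class.

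Regulators of the G1 to S transition showed the same level but smaller sizes. Of 24 G1 cyclin, E2F and RB genes tested 14 (58.3%) were higher and 1 (4.17%) lower, against 16.7% and 17.8% of all genes. Of the 15 with a call 13 were assigned to the 0 h level. E2F2 (2.14 ± 0.20), CCNE2, a cyclin of S phase entry (1.56 ± 0.17), E2F1 (1.36 ± 0.15) and the RB relative RBL1 (0.71 ± 0.07) were all below siNT at 0 h. CCND1, which encodes cyclin D1, showed a large gap at both times. It held 2441, 2423 and 2376 CPM in siNT and 540.4, 496 and 517 CPM in siELMO1 at 0 h and 2470.4, 2451 and 2204 CPM and 669, 664 and 673 CPM at 24 h, and the responses differed by 0.39 ± 0.06 (edgeR adjusted p = 8.2e-05). Mock lay between them, at means of 999 and 1108 CPM.

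**Figure D3:**
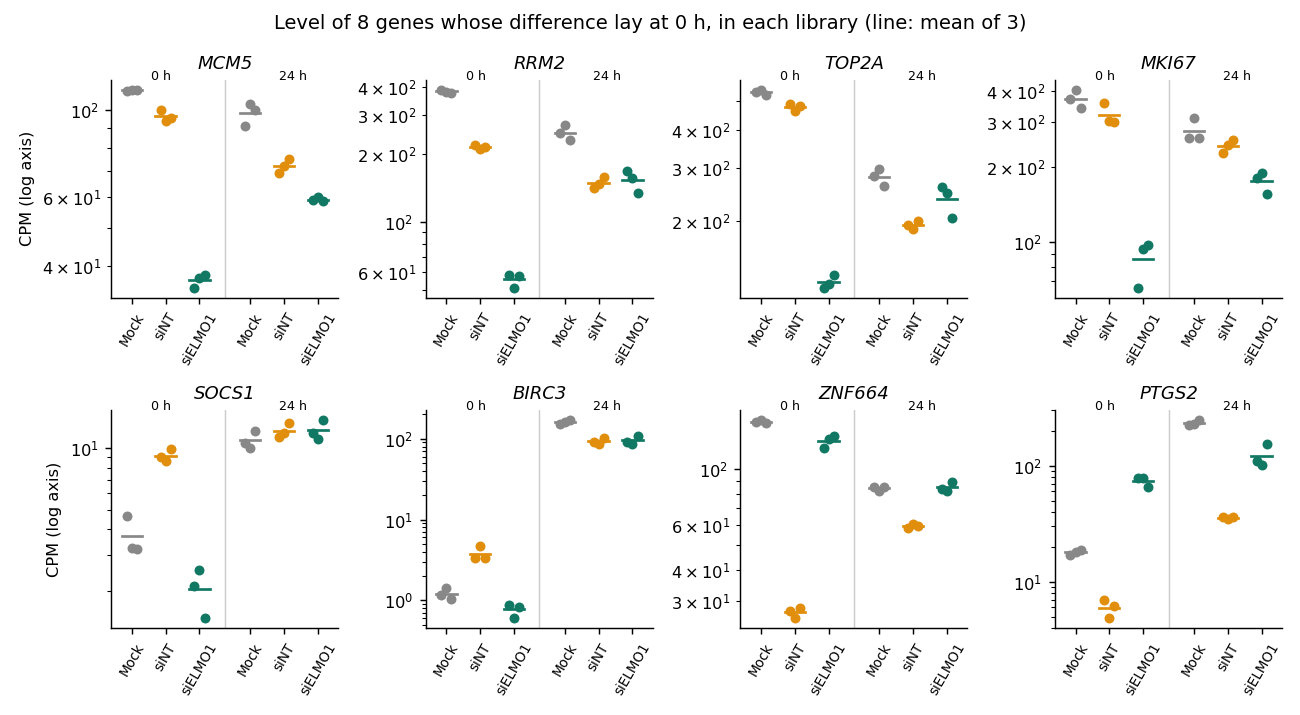
Points are the CPM of 1 library (log axis, different in each panel) for 8 genes whose difference was assigned to the 0 h level, and lines are group means of 3. In the 4 cell cycle genes siELMO1 stands below Mock and siNT at 0 h and closer to siNT at 24 h, and in ZNF664 and PTGS2 siNT is the lowest group at 0 h.

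Promoter windows are shown for G2/M genes that hold the word TTTGAA, the letters of the cell cycle genes homology region (CHR), in the same 300-base RefSeq promoters (GRCh38.p14), with the word in capitals. Only the first match of each promoter is shown. TOP2A holds a further match on the other strand at position -151, and MKI67 a further one at -29.
CDK1 (chr10:60778158-60778187, plus strand, position -161): gagtataataaaTTTGAActgtgccaatgc
TOP2A (chr17:40418073-40418102, minus strand, position -194): cgagtggtgcctTTTGAAgcctctctagtc
MKI67 (chr10:128126453-128126482, minus strand, position -47): ttagcgccagaaTTTGAAtcttcgttttcg
CENPA (chr2:26786026-26786055, plus strand, position -18): cggagcgagcgaTTTGAAcgcgagcggcgc
On either strand this short word was in 15.4% of all promoters in the table and 10% of those matched to genes tested. It was in 29.4% of the 306 promoters matched to the 0 h class of higher genes, in 68.9% of the 45 of the G2/M list, and in 3.03% of the 33 of the S phase list. CCAAT, the letters bound by NF-Y, was in 37.1% of promoters of genes tested, 54.9% of the 0 h class, 50% of the 28 of the lower class of both levels, 68.9% of the G2/M list and 69.7% of the S phase list. TTTCCCGC, an E2F site, was in 2.67% of promoters of genes tested, 7.52% of the 0 h class and 27.3% of the S phase list. GAAA, any 2 bases and GAAA, the core of the interferon-stimulated response element, was in 3.04% of promoters of genes tested and 68.6% of the 35 matched to the antiviral list. Among higher genes it was in 6.78% of the 24 h class, 5.88% of the 0 h class and 10.4% of the class of both levels. TGANTCA, the AP-1 site, was in 4.95% of promoters of genes tested, 10.2% of the 24 h class of higher genes, 8.33% of the class of both levels and 11.4% of the 35 of the 24 h class of lower genes. These shares describe letters in a window, and no test was made.

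Genes with a lower response at the 0 h level included several with a low start in siNT. ZNF664, a zinc finger gene, held 27.6, 25.7 and 28.3 CPM in siNT, 121, 132 and 135 CPM in siELMO1 and a mean of 154 CPM in Mock at 0 h. It rose to 58.7, 60.6 and 59.5 CPM in siNT and fell to 83.7, 82.3 and 88.7 CPM in siELMO1 (-1.74 ± 0.07, edgeR adjusted p = 1.7e-11). The gene overlaps others on both strands, so part of its counts may belong to them. PTGS2, which encodes the prostaglandin synthase COX-2, rose 5.93-fold in siNT and 1.64-fold in siELMO1 (-1.85 ± 0.19). Here both groups stood away from Mock at 0 h in opposite directions, with 6.96, 4.85 and 6.15 CPM in siNT, 77.6, 77.9 and 65.7 CPM in siELMO1 and a mean of 18.0 CPM in Mock. At 24 h siELMO1 was still higher, at 110.1, 101 and 153 CPM against 36.2, 34.6 and 35.9 CPM. CCDC69 (-1.80 ± 0.18) had the same order of siNT below siELMO1 at 0 h with a small gap at 24 h.

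SULT1B1, a cytosolic sulfotransferase, held 20.9, 19.8 and 20.7 CPM in siNT and 43.0, 37.3 and 43.4 CPM in siELMO1 at 0 h, and 212, 202 and 155 CPM and 31.3, 30.1 and 27.5 CPM at 24 h. It rose 9.26-fold in siNT and fell in siELMO1 to 0.719 of its start, a difference of -3.69 ± 0.17 (edgeR adjusted p = 7.4e-11). Mock had means of 105 CPM at 0 h and 90.1 CPM at 24 h. PLAT, which encodes tissue plasminogen activator, rose from 141, 137 and 138 CPM to 415, 438 and 354 CPM in siNT and went from 194, 180.2 and 181 CPM to 180.2, 175 and 141 CPM in siELMO1 (-1.70 ± 0.12). Mock had means of 108 CPM at 0 h and 94.7 CPM at 24 h. NOS3, the endothelial nitric oxide synthase, also had a lower response (-0.95 ± 0.08), with 358, 394 and 341 CPM in siNT, 148, 152 and 147 CPM in siELMO1 and a mean of 173 CPM in Mock at 24 h.

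By the rule of assignment a gene of both levels has gaps of opposite sign at 0 h and at 24 h. The lower genes of this class thus went from above siNT to below it, which is not a separate result. NEXN, an actin-binding protein, was higher in siELMO1 at 0 h (3.46, 8.36 and 6.41 CPM against 1.48, 1.78 and 1.69 CPM) and lower at 24 h (5.55, 5.98 and 6.52 CPM against 9.58, 11.5 and 16.2 CPM), a difference of -2.91 ± 0.33 (edgeR adjusted p = 2.5e-06). GPR4, a proton-sensing receptor (-1.48 ± 0.21), HHIP, a hedgehog-binding protein (-1.42 ± 0.13), and C19orf33 (-1.44 ± 0.21) crossed in the same way. In HHIP the levels were 165, 155 and 146 CPM in siNT and 222, 294 and 274 CPM in siELMO1 at 0 h and 280.1, 292 and 242 CPM and 176, 183 and 158 CPM at 24 h.

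Matrix genes separated the groups at both times. Of 30 collagen and laminin genes tested 10 (33.3%) had a higher response and 5 (16.7%) a lower one, against 16.7% and 17.8% of all genes. The median difference was 0.52. Of the genes with a call 7 were assigned to the 24 h level, 7 to the 0 h level and 1 to both. In siELMO1 19 of the 30 were higher and 4 lower at 0 h (31.3% and 31.3% of all genes). At 24 h 23 were higher and 1 lower (26.0% and 26.5%). COL5A1, an alpha chain of type V collagen, held 73.7, 63.5 and 74.2 CPM in siNT and 903, 910.3 and 857 CPM in siELMO1 at 0 h and 59.2, 58.6 and 69.0 CPM and 1129.6, 1127 and 1014 CPM at 24 h. Its responses differed by 0.47 ± 0.35 (edgeR adjusted p = 0.33), and with only the 12 libraries in the fit the same value was called (adjusted p = 0.005). COL5A2, of the same collagen type, had a lower response (-0.36 ± 0.08), with a gap that was wider at 0 h than at 24 h.

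Of 32 matrix enzymes and matricellular genes 7 (21.9%) were higher and 6 (18.8%) lower, near the 16.7% and 17.8% of all genes. TIMP3, an inhibitor of metalloproteinases, fell in siNT from 1009, 1001 and 1003 CPM to 408, 409.8 and 458 CPM and went from 838, 922 and 914 CPM to 1103, 1113 and 932 CPM in siELMO1 (1.48 ± 0.09, adjusted p = 2e-09), a difference at 24 h. CCN3, a matricellular protein, differed 2.83-fold between the responses at the same level. MMP14, a membrane-bound metalloproteinase, had a lower response (-1.03 ± 0.09) made at 0 h, with 157, 145 and 160.3 CPM in siNT and 408, 381 and 395 CPM in siELMO1. Of 18 integrin genes 5 (27.8%) were higher and 4 (22.2%) lower, against the same shares of all genes. ITGB3, a vitronectin receptor subunit, fell in siELMO1 from 283, 265 and 296 CPM to 117, 118 and 126 CPM and stood at 97.5, 89.4 and 95.2 CPM and 124, 128 and 97.7 CPM in siNT (-1.53 ± 0.12, edgeR adjusted p = 1.5e-08, 0 h level).

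Stress and metabolic lists varied in level. Of 26 NRF2 targets 15 (57.7%) were higher and 3 (11.5%) lower, against 16.7% and 17.8% of all genes. Of the 18 targets with a call 15 were assigned to the 0 h level. The median gap was -0.78 at 0 h and -0.65 at 24 h, so the list was lower in siELMO1 at both times. The median of the members' own differences of responses was 0.37, which is not the change between those gap medians. OSGIN1, an oxidative stress response gene, had the largest higher response (1.19 ± 0.12, 0 h level). The largest difference in size was the lower response of AKR1C1, an aldo-keto reductase (-1.48 ± 0.48, adjusted p = 0.022), which was assigned to the 24 h level. HMOX1, the heme oxygenase, also had a lower response (-0.63 ± 0.12, edgeR adjusted p = 0.00041), with 96.6, 94.3 and 84.1 CPM in siNT and 33.5, 35.5 and 32.4 CPM in siELMO1 at 24 h. Of 24 cholesterol synthesis genes 10 (41.7%) were higher and 3 (12.5%) lower, against 16.7% and 17.8% of all genes. Of those with a call 7 were assigned to the 0 h level, 4 to the 24 h level and 2 to both. INSIG1, which retains the sterol sensor SCAP in the endoplasmic reticulum, fell in siNT from 158, 165 and 161 CPM to 82.7, 76.5 and 75.5 CPM and held 129, 117 and 124 CPM and 146, 134 and 113 CPM in siELMO1 (1.13 ± 0.10, both levels). Of 16 heat shock protein genes 9 (56.2%) were lower at an edgeR adjusted p under 0.05, against 17.8% of all genes. The list median was -0.25, from a gap of 0.15 at 0 h and -0.09 at 24 h. Of the 9 genes 6 were assigned to the 0 h level, 2 to the 24 h level and 1 to both.

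Cell death genes were split in direction. Of 24 death receptor and caspase genes 7 were higher and 3 lower, of 17 BCL2 family genes 3 were higher and 4 lower, and of 25 p53 targets 7 were higher and 6 lower, against 16.7% higher and 17.8% lower over all genes. TNFRSF10D, a decoy receptor of TRAIL, fell in both groups and further in siELMO1, to 13.6, 11.5 and 14.9 CPM against 23.3, 27.1 and 22.9 CPM in siNT (-1.05 ± 0.12, 24 h level). BCL2L1, which encodes the survival protein BCL-XL, rose 2.20-fold in siNT and 1.41-fold in siELMO1 (-0.64 ± 0.05, 0 h level), and BAK1, which encodes a pore-forming member of that family, differed by 1.00 ± 0.14 from both times. CDKN1A, the p53 target p21, rose in both groups without a detectable difference (-0.05 ± 0.06, adjusted p = 0.55), and CASP8 did not differ detectably (0.19 ± 0.09, adjusted p = 0.11). CASP8 was called without siNT replicate 3 at 24 h (0.27, adjusted p = 0.015).

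All 13 mitochondrially encoded protein genes had a lower response in siELMO1, against 17.8% of all genes. The median difference was -1.50, from a gap of 0.73 at 0 h and -0.82 at 24 h. MT-ND4, a subunit of respiratory complex I, held 1781, 2261 and 2039.8 CPM in siNT and 1337, 3997 and 3909.8 CPM in siELMO1 at 0 h. At 24 h it held 2408, 2619.8 and 2957 CPM in siNT and 1122, 1336 and 935 CPM in siELMO1, without overlap (-1.84 ± 0.37, edgeR adjusted p = 8e-04). The assignment of MT-ND4 to the 24 h level depends on single libraries, since without siELMO1 replicate 1 at 0 h the gaps were 0.96 and -1.23 and both levels contributed. The same held without siNT replicate 2 at 0 h and without replicate 3 of either group at 24 h. In siELMO1 at 0 h replicate 1 was below all siNT libraries while replicates 2 and 3 were above them. The higher level at 0 h thus rests on replicates 2 and 3, whose mitochondrial share was above that of every other library. Totals of replicates 1, 2 and 3 were 71.1, 40.4 and 51.0 M counts. The part of replicate 1 in the result was not tested beyond leaving it out, which gave a median of -1.84. Leaving out replicate 2 or 3 gave -1.25 and -1.33, and all 13 genes were lower in each case. Over the 4 groups the 13 genes share 1 genome and are not independent. MT-TF, the phenylalanine tRNA gene of the same genome, went the other way (2.89 ± 0.47) with 2.03, 2.13 and 3.90 CPM in siNT and 26.1, 28.1 and 36.1 CPM in siELMO1 at 24 h. Counts for the nuclear genes of cytosolic ribosomal proteins also changed without siELMO1 replicate 1 at 0 h. With it, 6 of 78 (7.69%) had a higher response and 2 (2.56%) a lower one, below the 16.7% and 17.8% of all genes. Their list median of 0.064 did not exceed the spread of its libraries (0.131). Without that library 33 were higher and 7 lower, and the counts over all genes rose from 2533 and 2700 to 3029 and 3142.

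**Figure D4:**
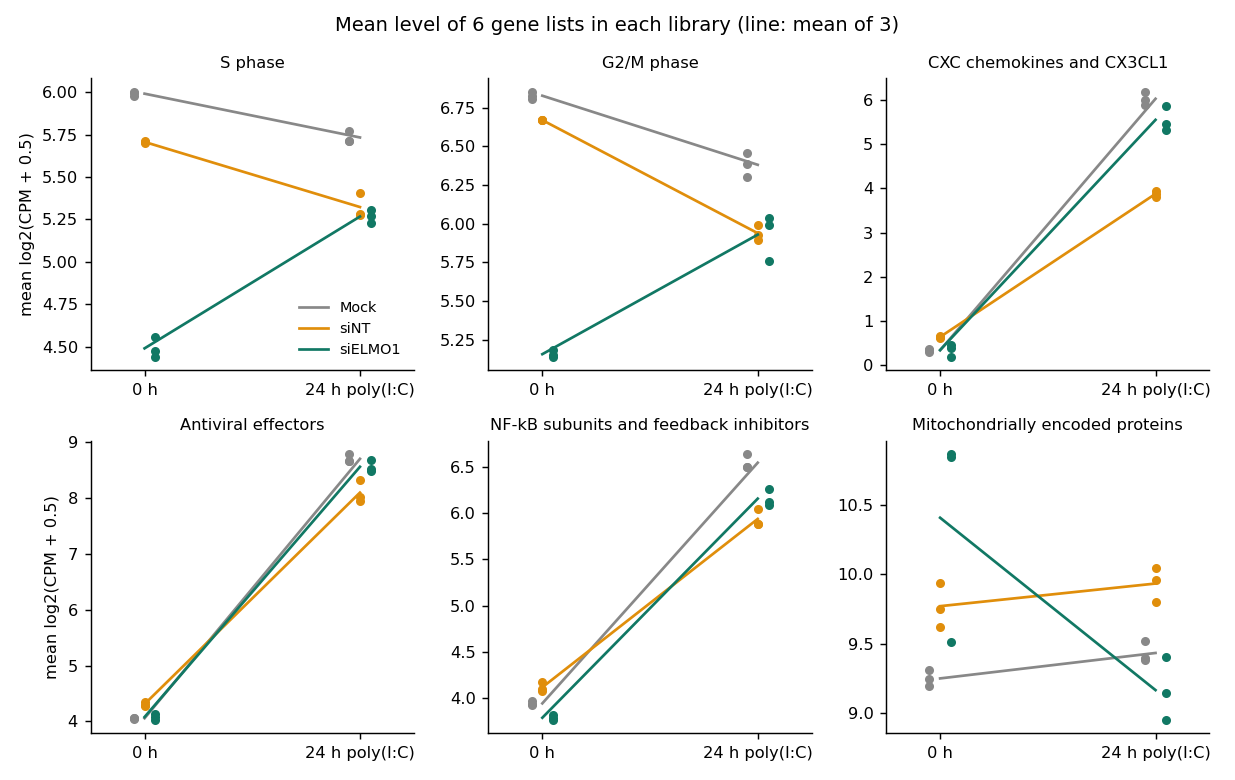
Each point is the mean log2(CPM + 0.5) over the tested members of a list in 1 library, with lines through the means of 3 libraries for Mock, siNT and siELMO1. The S phase and G2/M lines of siNT and siELMO1 meet at 24 h, the chemokine and antiviral lines of siELMO1 start at or below those of siNT and end above them, and the mitochondrial panel shows 1 siELMO1 library at 0 h far below the other 2.

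Several lists had no difference beyond the spread of their libraries (the SD of the list mean, combined over the 4 groups). The median was 0.00 over 11 leukocyte adhesion genes, 0.02 over 19 genes of the unfolded protein response, 0.01 over 26 glycolysis and hypoxia genes and -0.01 over 13 endothelial markers. The groups themselves were not alike, since adhesion genes were higher in siELMO1 by a median of 0.56 at 0 h and 0.58 at 24 h, so the gap was there at both times. ICAM1, the ligand of leukocyte integrins, rose 21.8-fold in siNT and 27.6-fold in siELMO1 (0.34 ± 0.10, edgeR adjusted p = 0.015). That call was lost without siNT replicate 3 at 0 h (0.29, adjusted p = 0.051). VCAM1 and SELE had at most 11 counts in any of the 12 libraries and were not tested. The unfolded protein response genes were higher in siELMO1 by medians of 0.52 at 0 h and 0.55 at 24 h.

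**Figure D5:**
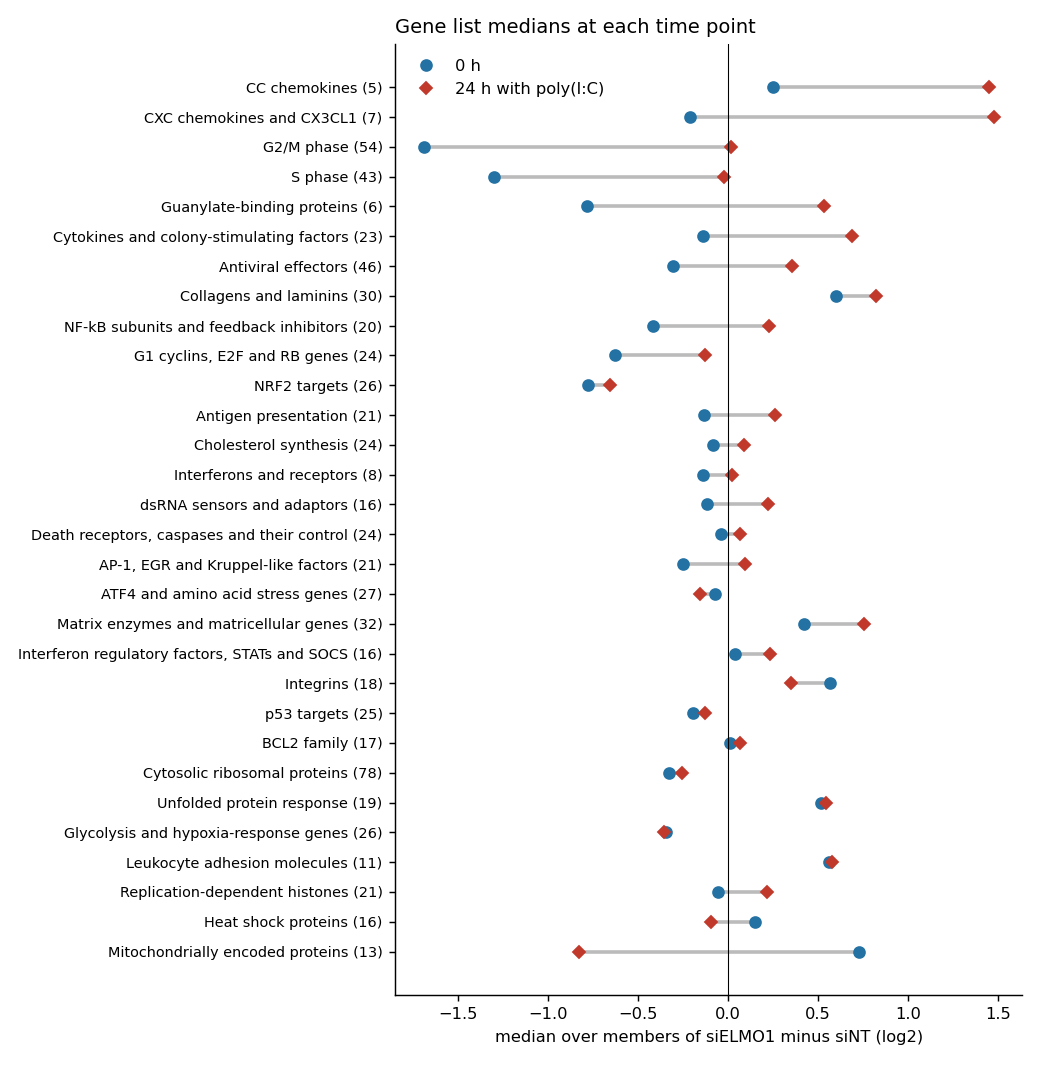
For each of 30 gene lists (members tested in parentheses) the circle is the median siELMO1 minus siNT difference at 0 h and the diamond the same at 24 h, both log2, so the length of the bar shows the change of the gap. Lists are ordered by the median difference of responses, and the chemokine bars extend to the right at 24 h while the cell cycle bars start far to the left at 0 h.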

How the data were processed

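RNA of EA.hy926 cells was sequenced in 18 libraries, 3 for each treatment and time. The deposited values are estimated counts per gene that the authors made with STAR on GRCh38, StringTie with the Gencode v44 annotation and its prepDE script, which derives counts from coverage. The read length given to that script and the use of strand are not given in the sources used here. Of the 168 genes named by rule, 56 overlap a gene on the same strand and 90 on the other.

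Counts were rounded and fitted in edgeR 4.0.16 (R 4.3.3) with the quasi-likelihood test on all 18 libraries, TMM factors and 1 coefficient for each of the 6 groups. The test covered 15167 of 62754 genes, those that summed to 100 counts or more and reached 1 CPM in some library. Adjusted p-values are Benjamini-Hochberg values over all genes tested, two-sided, and those printed in the text come from edgeR unless limma-voom is named. The SE is the difference divided by the square root of its F. Counting intervals are not given because the spread between replicates is larger, and the depth of 40.4 to 71.1 M counts sets a floor of 3 counts, at or under which no fold is given.

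The gene lists and the members were chosen with earlier results of these data known. Named genes are ELMO1, the 4 genes with the largest difference in each of 6 classes (mean of at least 5 CPM, over 3 counts in each library, no overlap at the time of the class), and in each list its preset key genes and the largest member in each direction with a mean of at least 1 CPM. CTCF, KLF2 and the keratin and endothelial marker genes given by name only were named after their values were seen. Some genes that the rule names are not reported here. Alternatives were library totals, upper-quartile factors, DESeq2 1.42.0, limma-voom (limma 3.58.1), other filters, only the 12 libraries, a replicate block, mitochondrial genes left out, transcript counts and each library left out. Same-numbered replicates of the groups deviated together by a median correlation of 0.05 over 18 pairs, with 3 above 0.1. The highest were between siNT and siELMO1 at 24 h, at 0.39 for replicate 3 and 0.199 for replicate 2, against 0.007 for replicate 1. What these replicates share was not tested. No pair of groups had all 3 above 0.1, so the numbers were not taken to pair the samples.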

Additional observations from a re-analysis of the deposited data

Results flagged for a closer look

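The poly(I:C) responses of siELMO1 and siNT differed by the edgeR test of the difference itself in 581 genes with a higher response in siELMO1 and 360 with a lower one. The genes listed here are among those with the largest difference in each class, and each passed that test. At the 24 h level the higher genes were CSF2 at 4.84, ZC3H12A at 3.06, CSF3 at 2.97 and MT-TF at 2.89 on the log2 scale. At the 0 h level they were TEX14 at 2.87, ASF1B at 2.64 and ACBD7 at 2.52, and at both levels CCL20 at 3.37, CXCL2 at 2.78, C3 at 2.13 and PLAAT4 at 2.11. The lower genes of the 24 h level were SULT1B1 at -3.69, MT-ND4 at -1.84, MT-CYB at -1.79 and PLAT at -1.70. Both levels contributed to MT-ND4 and MT-CYB when siELMO1 replicate 1 at 0 h was left out. Those of the 0 h level were PTGS2 at -1.85, CCDC69 at -1.80 and ZNF664 at -1.74, and those of both levels NEXN at -2.91, GPR4 at -1.48, C19orf33 at -1.44 and HHIP at -1.42.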

How the results depend on the processing

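Over all alternatives that kept the threshold, 541 to 686 genes had a higher and 303 to 433 a lower response, and 58.8% to 67.5% of calls were higher, against 581 and 360. The replicate block gave 591 and 359, with 922 of the 941 genes called again. Of 116 named genes with a call, 97 kept it in every alternative other than transcript counts, where 52 kept it, 59 had the same direction without a call and 5 the opposite direction, and 18 were assigned to another level without 1 of the libraries. With limits of 1/4 and 3/4 on the share, both levels took 114 higher and 91 lower genes in place of 71 and 49. Leaving out 1 library in turn, the higher classes held 79 to 121 genes at the 24 h level, 398 to 505 at 0 h and 62 to 96 at both, and the lower classes 54 to 93, 212 to 307 and 41 to 60. List medians ranged from 1.46 to 2.085 for CC chemokines, 0.32 to 0.41 for G1 cyclins, E2F and RB genes, -0.226 to 0.227 for replication-dependent histones, 0.415 to 0.559 for collagens and laminins, -0.12 to 0.166 for integrins, 0.299 to 0.434 for NRF2 targets and -0.009 to 0.313 for epithelial markers. For the transcript with the most counts, 5 named genes changed sign without a call there, HSPA5 (0.94), IFNAR1 (-0.33), IRF9 (3.99), LAMA4 (0.047) and TXNRD1 (-0.27), and the cause was not tested. With 3 replicates and genes near the floor, differences in low genes carry wide errors.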

Other observations

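Early response factors of the AP-1, EGR and Krüppel-like list were split, with 7 of 21 genes (33.3%) higher and 6 (28.6%) lower, against 16.7% and 17.8% of all genes. FOSL1, an AP-1 subunit, had a higher response (0.85 ± 0.15, edgeR adjusted p = 0.00021) and was lower in siELMO1 at 0 h, at 76.9, 116 and 108 CPM against 292, 299 and 277 CPM. ATF3, a stress-induced factor, had a higher response (0.69 ± 0.12) that lay at 24 h, with 27.9, 26.5 and 28.2 CPM in siNT and 50.6, 49.2 and 61.8 CPM in siELMO1. FOS was higher in siELMO1 at 0 h and had a lower response (-1.30 ± 0.40, adjusted p = 0.017).

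Among 27 ATF4 and amino acid stress genes 9 (33.3%) were higher and 6 (22.2%) lower, and the list median did not exceed the spread of its libraries. The median over 21 replication-dependent histone genes, most of which lack a poly(A) tail, was -0.04, with 5 (23.8%) higher and 4 (19.0%) lower, near the shares of all genes.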
